A study of Rattus norvegicus with 10 samples.

Results

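Chemokines, interleukins and their receptors were measured with 1-colour oligonucleotide arrays in the whole mammary gland of female SD rats, an outbred laboratory strain. The genes were chosen by name alone: every gene whose symbol begins with Ccl, Cxcl, Ccr, Cxcr or Il and a number, and which is the single gene that the array's annotation gives for a probe set. This took in 73 genes of the 10411 named on the array, 11 of them with several probe sets, and each gene was read from its brightest probe set, that of highest mean. The soy rats received soy protein isolate and the casein rats casein as the protein of AIN-93G, a purified rodent diet. Both exposures ran from gestation day 4 until weaning, and glands were taken whole at postnatal day 21, with 5 arrays for each diet. The soy arrays carry the sample numbers 147, 149, 155, 157 and 159, and the casein arrays the numbers 6, 7, 10, 18 and 20; values are given in these orders. According to the labels, RNA was pooled and each pool gave replicate cRNA targets, so the arrays may not be separate animals, and a p-value here reflects a spread between arrays that can be technical in part.

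Chemokines are small secreted proteins that guide leukocytes by binding G protein-coupled receptors; the CC and CXC families are named after the spacing of their first cysteines. Some chemokines are made steadily by stromal cells and place lymphocytes in tissues and lymph nodes, and others are made on demand by inflamed tissue and draw in monocytes, granulocytes and activated T cells. Interleukins act mostly through receptors built from several chains, and one chain, such as the common gamma chain or gp130, can serve many interleukins. The mammary fat pad of the rat holds lymph nodes and resident leukocytes beside ducts, fat and vessels, so a whole gland carries transcripts of all of these. In such bulk tissue, fewer cells of a type and less RNA per cell cannot be told apart.

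All values are log2 MAS5 signals, MAS5 being the array maker's summary of the probes of a probe set, and differences are soy minus casein on that scale. Signals of different probe sets are not comparable as amounts of RNA, so each gene is compared only with itself across arrays. The 40th percentile of the probe sets' mean, 7.47, served as a mark for dim probe sets: 31 of the 73 genes had a mean at or above it and 42 lay below, a share of 42.5% at or above against 68.7% of all named genes. No gene was left out for a low signal. The diets were compared with limma over all 15866 probe sets, with Benjamini-Hochberg adjustment over that whole table and a threshold of 0.05. At that threshold 0 of 15866 probe sets (0%) were called, the smallest adjusted p being 0.23.

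Soy 149 and casein 6, 1 array of each diet, stood apart from the other 8 in lymphocyte transcripts. The mean of 12 measured B and T cell markers was 6.11 in soy 149 and 6.198 in casein 6, with all other arrays between 8.765 and 9.604, and 11 of the 12 markers had these arrays as their lowest pair, Cd28 being the exception. Cd28 was highest in soy 149 (6.82), and Cd4 had the pair lowest only narrowly, with casein 6 at 8.61 and casein 18 at 8.63. Cd79b, the B cell receptor's signalling chain, was at 4.32 in soy 149 and 3.41 in casein 6, and Cd3e of the T cell receptor complex at 4.10 and 3.67. Both measured granulocyte markers, S100a8 and S100a9, were also low there, with a mean of 3.64 in soy 149 and 3.99 in casein 6, where every other array had at least 6.2. Adipocyte markers (5 measured) had means of 11.005 to 12.128, and luminal epithelial markers (8 measured) of 5.789 in soy 159 to 10.076 in casein 7. Casein 6 (6.142) and soy 149 (7.121) came next above soy 159 in the luminal mean. Basal epithelial markers (5 measured) had means of 7.309 in casein 6, 7.329 in soy 159 and 7.771 in soy 149, against 8.482 to 9.992 elsewhere. The mean of the macrophage and myeloid markers (9 measured) ranged from 9.474 to 10.239. Lyz2, and no other of the 9, had soy 149 (11.14) and casein 6 (11.47) as its lowest pair, against 12.42 to 13.44 elsewhere. The 10 skeletal muscle markers had means of 12.288 to 13.62 in soy 147, soy 149, soy 157 and casein 6. In the other arrays these means were 5.96 to 8.003. The mean of 4 skin markers was highest in soy 147 (9.288), as were Sprr1a (12.91) and Calml5 (10.24), but not Krt1 or Krt10. Beyond fits without these arrays and with the lymphocyte marker mean as a covariate, the part of these cell types in the results was not tested. Because soy 149 and casein 6 lie 1 in each diet, some results are also given without 1 or both of them.

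The stromal chemokines that place lymphocytes in tissue, Cxcl12 and Cxcl13, varied less across arrays than Cxcr4, the receptor of Cxcl12. Cxcr5, the receptor that leads B cells into follicles, had signals of 7.61, 7.61, 7.94, 8.14 and 7.96 in the soy arrays, against 7.18, 7.84, 8.02, 7.42 and 7.54 in the casein arrays. The diets overlapped, and casein 6 and casein 18 were the lowest. Cxcr5 averaged 7.85 ± 0.23 in soy glands and 7.60 ± 0.33 in casein glands (SD, n = 5 each), a difference of 0.25 ± 0.18 (SE; adjusted p = 0.88, limma), which was 0.15 without casein 6. Soy 149, low for the lymphocyte markers, was not among the 2 lowest arrays of Cxcr5.

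Its ligand Cxcl13, which follicular stromal cells make, had signals of 11.14, 10.78, 11.75, 11.32 and 10.99 in soy glands, against 11.06, 11.21, 11.38, 10.86 and 11.21 in casein glands. All 10 values lay within 1 unit, with an SD of 0.28, near the median SD of all genes (0.27). The diets overlapped (difference 0.05 ± 0.17, SE). Cxcl12, a stromal chemokine that retains leukocytes through Cxcr4, had signals of 11.83, 11.84, 11.76, 11.69 and 11.96 in soy glands, against 12.08, 11.67, 11.87, 11.42 and 11.56 in casein glands. Casein 6, where lymphocyte markers were low, held the highest Cxcl12 signal, and the SD over the 10 arrays was 0.19. The dimmest of the 3 probe sets of Cxcl12 had an SD of 0.35, a difference of -0.09 and its highest signal in casein 10 (9.97). The receptor of Cxcl12 varied more: Cxcr4 was at 9.32, 8.01, 9.76, 9.38 and 8.81 in soy glands, against 8.10, 9.53, 9.85, 9.34 and 9.82 in casein glands. Soy 149 and casein 6 were its lowest arrays, and its SD of 0.67 over all arrays was 0.35 over the other 8. The 3 probe sets of Cxcr4 all had negative differences, from -0.41 to -0.24, and the one with the highest mean gave -0.27 ± 0.38 (SE; adjusted p = 0.94, limma).

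**Figure D1:**
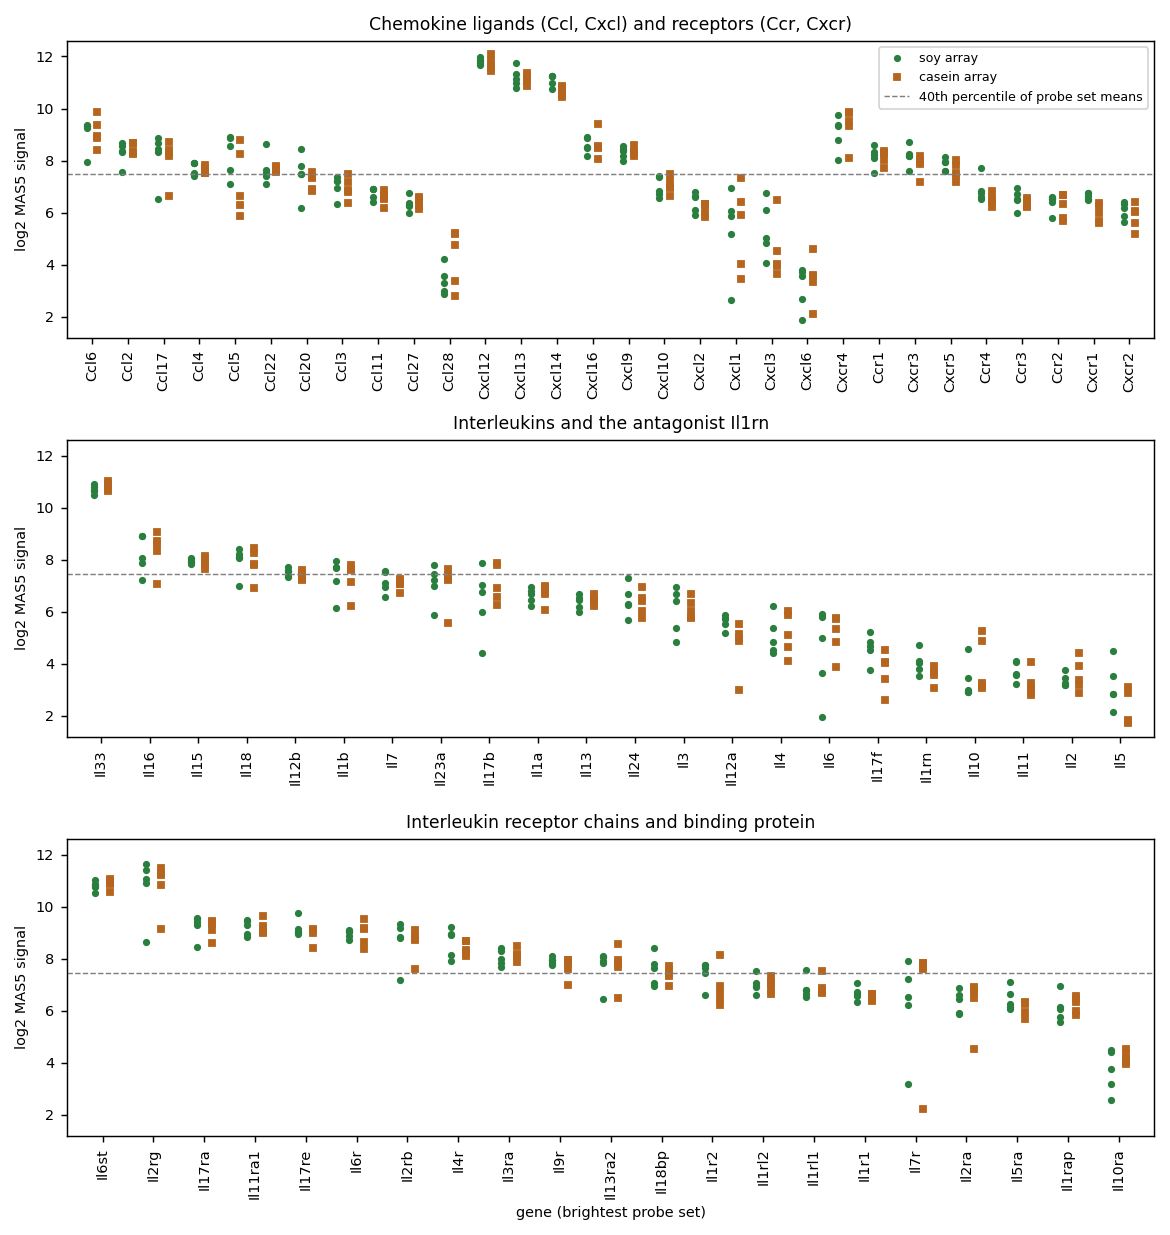
Log2 MAS5 signal of each of the 73 genes (brightest probe set) in every array, by role; circles are soy arrays, squares casein arrays, and the dashed line is the 40th percentile of all probe set means, 7.47. Within a gene the spread of points is the spread between arrays, and heights of different genes are not comparable as amounts; Il7r in the lower panel has 1 soy and 1 casein array far below the rest.

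Of 11 CC chemokine ligands, 6 had means at or above 7.47, and 7 had positive and 4 negative differences, with 0 called by limma and 0 at an unadjusted p under 0.05. Ccl6, a rodent chemokine made by myeloid cells, was at 9.33, 9.34, 9.25, 7.96 and 9.35 in soy glands, against 9.87, 8.96, 9.37, 8.41 and 8.87 in casein glands. Soy 157 and casein 18 were its lowest arrays, and its highest was casein 6 (difference -0.05 ± 0.32, SE). Ccr1, a receptor for CC chemokines on monocytes and macrophages, had the same lowest arrays, with 8.22, 8.31, 8.10, 7.53 and 8.59 in soy glands, against 8.35, 8.02, 8.28, 7.71 and 8.29 in casein glands. These 2 genes alone among the 73 shared that lowest pair. The macrophage marker mean was lowest in casein 18 (9.474) and stood at 9.786 in soy 157, above that of soy 149 (9.65). Of its markers, Csf1r, C1qa and C1qb also had soy 157 and casein 18 as their lowest arrays, and the others did not. C1qb was at 9.49 in soy 157 and 9.73 in casein 18. Lyz2 was highest in soy 157, at 13.44. The part of these markers in the pattern was not tested.

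Ccl17, a dendritic cell product that attracts T cells through Ccr4, was at 8.32, 6.52, 8.68, 8.87 and 8.45 in soy glands, against 6.62, 8.16, 8.29, 8.39 and 8.72 in casein glands. Soy 149 and casein 6 lay more than 1.5 units under every other array. Over the other 8 arrays its SD was 0.24, against 0.84 over all 10. Ccl22, the other ligand of Ccr4, did not show this: it ranged from 7.11 in soy 149 to 8.63 in soy 157, with casein 6 at 7.62 among the rest. Its second probe set, of nearly the same mean, differed: casein 6 was at 6.01 there, below all other arrays at 7.42 to 8.06.

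Ccl5, which T cells and natural killer cells make and which attracts T cells, had the largest SD of the 31 genes at or above 7.47 (1.14). Its signals were 8.56, 7.10, 8.90, 7.64 and 8.86 in soy glands, against 5.88, 8.24, 8.81, 6.64 and 6.30 in casein glands. Casein 6, 18 and 20 lay below 7 and below every soy array, while casein 7 and casein 10 lay above 8 among the soy arrays, so the diets overlapped. Means were 8.21 ± 0.80 in soy glands and 7.17 ± 1.28 in casein glands (SD, n = 5 each), and the difference of 1.04 ± 0.58 (SE) had an adjusted p of 0.86 in limma. Leaving out 1 array moved it between 0.71 and 1.45. Without casein 6 and soy 149 it was 0.99, and with the lymphocyte marker mean as a covariate 1.01. Ccl5 was the only gene of the 31 whose diets differed by at least 1.5-fold in the means.

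Attractants of monocytes and T cells among the other CC ligands stayed in narrower ranges. Ccl2, the main monocyte attractant, ranged from 7.55 to 8.69 in soy glands and from 8.25 to 8.68 in casein glands, and only soy 149 lay below 8. Ccl4 ranged from 7.40 to 7.92 in soy glands and from 7.52 to 7.82 in casein glands, an SD of 0.19 over the 10 arrays. Ccl3, which like Ccl4 is made by activated macrophages and T cells, was below 7.47 on average and had soy 149 (6.32) and casein 6 (6.39) as its lowest arrays, against 6.79 to 7.49. Ccl20, which attracts cells with Ccr6, had the same lowest pair, at 6.16 in soy 149 and 6.85 in casein 6, but casein 18 was at 6.90, close above.

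Ccl28, a mucosal chemokine known in lactating mouse mammary gland for drawing in antibody-secreting cells, had a dim signal with wide spread. It was at 2.87, 3.29, 3.0, 4.22 and 3.58 in soy glands, against 2.79, 4.74, 3.36, 5.19 and 5.20 in casein glands. Casein 7, 18 and 20 stood above every soy array, and casein 6 was the lowest of all. The difference of -0.86 ± 0.51 (SE; adjusted p = 0.86, limma) was -1.23 without casein 6 and -0.63 without casein 20. On a log2 scale of the signal plus 16, which compresses dim values, it was -0.47. Ccl11, an eosinophil attractant, and Ccl27, a skin chemokine, lay between 6.0 and 6.93 in all arrays, with differences of 0.18 and -0.06.

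Among 10 CXC ligands, 5 had means at or above 7.47, and differences were positive for 5 and negative for 5. Cxcl14, a chemokine made constantly by many epithelia and by stroma, was at 10.97, 11.25, 11.25, 10.75 and 11.24 in soy glands, against 10.44, 10.73, 10.86, 10.50 and 10.80 in casein glands. Only soy 157, at 10.75, fell inside the casein range. Means were 11.09 ± 0.23 in soy glands and 10.67 ± 0.19 in casein glands (SD, n = 5 each). The difference of 0.42 ± 0.13 (SE) is 1.34-fold, with an unadjusted p of 0.0060 and an adjusted p of 0.86 in limma. It stayed between 0.37 and 0.51 when any 1 array was left out, and was 0.33 without casein 6 and soy 149. Cxcl14 had the smallest p of the 73 genes, and it did not pass the adjusted threshold.

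Cxcl16, a membrane-bound ligand that can be shed, ranged from 8.16 to 8.91 in soy glands and from 8.04 to 9.39 in casein glands, with casein 7 highest and a difference of 0.00 ± 0.23 (SE). Cxcl9, an interferon-induced attractant of activated T cells, kept between 8.0 and 8.61 in all arrays (SD 0.18), and Cxcl10, of the same kind, between 6.58 and 7.50. The neutrophil attractants Cxcl1, Cxcl2 and Cxcl3 had means below 7.47. Cxcl2 lay between 5.85 and 6.78 in all arrays (SD 0.33). Cxcl1 was at 6.96, 2.63, 5.17, 5.86 and 6.07 in soy glands, against 3.45, 7.33, 6.41, 5.92 and 4.03 in casein glands. Its SD of 1.55 was exceeded among the 73 genes only by that of Il7r, and soy 149 and casein 6 were again the lowest arrays. Cxcl3 was at 4.82, 6.77, 6.09, 5.04 and 4.08 in soy glands, against 6.5, 4.04, 4.54, 3.94 and 3.66 in casein glands. Soy 149 and casein 6 were its highest arrays, but only in this probe set of 4. In the next brightest, casein 6 was the lowest of all arrays at 2.20, and the 4 probe sets gave differences from -0.31 to 0.83, so no pattern can be given for the gene.

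Of 9 chemokine receptors, 4 had means at or above 7.47 and 8 had positive differences, none of them called. Among all 10411 genes, 5484 differences were positive and 4927 negative. Cxcr1, which in other mammals binds neutrophil-attracting CXC chemokines, was the one gene of the 73 whose diets did not overlap. It was at 6.51, 6.62, 6.75, 6.77 and 6.47 in soy glands, against 6.36, 5.99, 5.67, 5.61 and 6.26 in casein glands. The lowest soy array stood 0.10 above the highest casein array, so the separation is narrow. Soy glands averaged 6.62 ± 0.14 and casein glands 5.98 ± 0.34 (SD, n = 5 each), a difference of 0.65 ± 0.20 (SE). In limma the unadjusted p was 0.0078 and the adjusted p 0.86. An exact two-sided permutation test can return only its smallest p, 0.0079, for a gene picked for such separation, and so adds nothing. Over all 10411 genes, 0.682% had every soy array above every casein array and 0.298% the reverse. Its mean lies below 7.47, and leaving out 1 array kept the difference between 0.56 and 0.75.

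The other receptors gave no separation. Cxcr3, a receptor of activated T cells for Cxcl9 and Cxcl10, was at 8.16, 7.62, 8.26, 8.70 and 8.16 in soy glands, against 7.18, 7.96, 8.19, 7.86 and 8.03 in casein glands, with casein 6 and soy 149 lowest (difference 0.34 ± 0.23, SE). Ccr4, the receptor of Ccl17 and Ccl22, was at 6.76, 6.61, 6.82, 7.73 and 6.52 in soy glands, against 6.46, 6.22, 6.55, 6.43 and 6.82 in casein glands. Its difference of 0.39 ± 0.24 (SE; adjusted p = 0.86, limma) rested on soy 157 and was 0.18 without it. Ccr2, Ccr3 and Cxcr2 lay between 5.17 and 6.96, with differences of 0.15, 0.19 and 0.23.

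The 22 interleukins, with the antagonist Il1rn, were mostly dim: 4 had means at or above 7.47, and 12 differences were positive and 10 negative. Il33, an alarmin kept in the nuclei of stromal and endothelial cells, was at 10.91, 10.69, 10.50, 10.64 and 10.78 in soy glands, against 10.68, 10.89, 11.01, 10.89 and 10.63 in casein glands. All arrays lay within 0.52 of each other. Its difference was -0.12 ± 0.10 (SE; adjusted p = 0.89, limma), and its second probe set gave -0.24. Il15, which sustains natural killer and memory T cells, was as even, from 7.85 to 8.05 in soy glands and from 7.66 to 8.15 in casein glands; its SD of 0.15 was the smallest of the 73 genes.

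Il16, a T cell product that binds Cd4, and Il18, an interleukin-1 family cytokine that induces interferon gamma, shared the lymphocyte marker mean's lowest arrays. In the other 8 arrays the order differed: the marker mean was lowest in soy 147, Il16 in soy 159 and Il18 in casein 18. Il16 was at 8.08, 7.21, 8.90, 8.91 and 7.89 in soy glands, against 7.07, 8.61, 8.73, 8.32 and 9.06 in casein glands. Il18 was at 8.06, 7.00, 8.41, 8.21 and 8.08 in soy glands, against 6.91, 8.25, 8.45, 7.81 and 7.82 in casein glands. Both had soy 149 and casein 6 as their lowest arrays, with differences of -0.16 ± 0.41 and 0.11 ± 0.32 (SE). Il1b, the main inflammatory member of the interleukin-1 family, was below 7.47 on average and had the same lowest pair, at 6.14 in soy 149 and 6.24 in casein 6 against 7.13 to 7.95.

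Several dim interleukins had large but uncertain differences. Il12a, one subunit of interleukin-12, was at 5.20, 5.54, 5.71, 5.88 and 5.77 in soy glands, against 3.0, 4.98, 4.88, 5.16 and 5.54 in casein glands. Casein 6 lay far below the rest, and the difference of 0.91 ± 0.43 (SE) was 0.48 without it. Il17f, a mucosal defence cytokine, was at 4.69, 3.75, 5.22, 4.55 and 4.84 in soy glands, against 4.02, 3.41, 4.52, 2.61 and 4.09 in casein glands, a difference of 0.88 ± 0.40 (SE; unadjusted p = 0.049 in limma). Il5, which supports eosinophils, was at 3.52, 4.51, 2.83, 2.85 and 2.14 in soy glands, against 1.72, 2.87, 3.10, 1.85 and 1.81 in casein glands. Its difference of 0.90 ± 0.47 (SE) was 0.56 without soy 149 and 0.43 without both soy 149 and casein 6. The diets overlapped for all of these genes, and limma gave each an adjusted p of 0.86.

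Il1rn, which blocks the interleukin-1 receptor, ranged from 3.55 to 4.71 in soy glands and from 3.05 to 3.92 in casein glands, a difference of 0.46 ± 0.29 (SE) that was 0.29 without soy 157. Il11, a gp130 cytokine, ranged from 3.23 to 4.10 in soy glands and from 2.81 to 4.05 in casein glands, a difference of 0.48 ± 0.31 (SE). The classical T helper cytokines Il2, Il4 and Il10 kept their means between 3.47 and 5.11, with differences of -0.19, -0.08 and -0.55. Il6 was at 1.96 in soy 149, while its other signals lay between 3.64 and 5.92, with a difference of -0.63 ± 0.72 (SE).

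**Figure D2:**
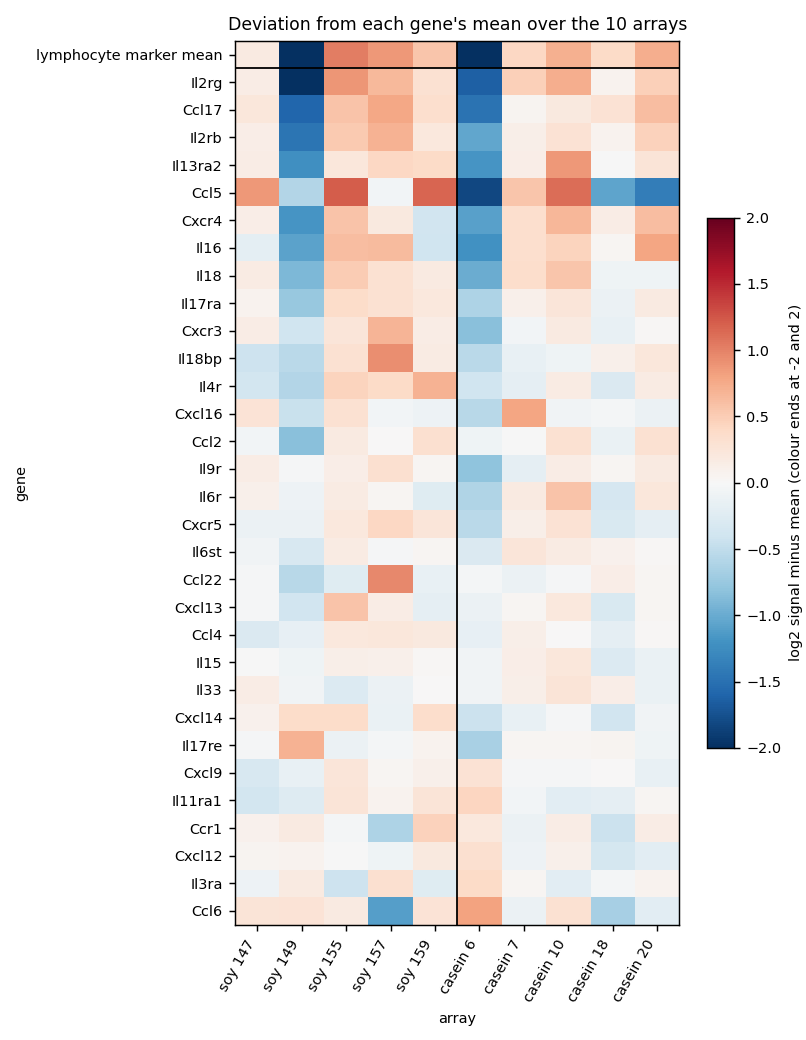
Log2 signal minus the gene's mean over 10 arrays for the 31 genes with means at or above 7.47, with the mean of 12 lymphocyte markers on top; columns are arrays, soy on the left and casein on the right, and colour ends at -2 and 2. The columns of soy 149 and casein 6 are blue for the marker mean and the upper rows, from Il2rg to Il4r, and near white or red for Cxcl12, Il33 and Ccl6 in the lower rows.

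Interleukin receptor chains held the widest contrast between arrays, that of Il7r. Il2rg, the common gamma chain of the receptors for interleukins 2, 4, 7, 9, 15 and 21, was at 10.90, 8.66, 11.64, 11.40 and 11.05 in soy glands, against 9.13, 11.23, 11.49, 10.83 and 11.24 in casein glands. Soy 149 and casein 6 lay at least 1.7 units under every other array, and the SD fell to 0.28 over the other 8 arrays, against 1.02 over all 10. Il7r, the interleukin-7 receptor chain of naive lymphocytes, was singled out after its values were seen, for an SD of 2.05, the largest of the 73 genes. It was at 6.22, 3.17, 7.90, 7.20 and 6.54 in soy glands, against 2.23, 7.85, 7.67, 7.84 and 7.59 in casein glands. Its difference was -0.43 ± 1.16 (SE), and without soy 149 and casein 6 it was -0.77 ± 0.32 (SE; adjusted p = 0.67, limma).

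The promoters of both genes are shown because both were lowest in soy 149 and casein 6, beside that of Cxcl12, which was not. Over the other 8 arrays their order differed. Casein 18 was lowest there for Il2rg (10.83), while Il7r was lowest in soy 147 (6.22) and at 7.84 in casein 18. RefSeq sequences of the GRCr8 build from 250 bases before to 50 bases after the gene's start are written 5′ to 3′ on the gene's strand, and capitals mark GGAAG, a string that extends GGAA, the core bound by ETS factors, by a G, or TGTGGT, the RUNX motif, on either strand (CTTCC is GGAAG read from the other strand). Il2rg lies at chrX:70438951-70439250 on the minus strand, Il7r at chr2:60204868-60205167 on the minus strand and Cxcl12 at chr4:152060531-152060830 on the plus strand.
Il2rg: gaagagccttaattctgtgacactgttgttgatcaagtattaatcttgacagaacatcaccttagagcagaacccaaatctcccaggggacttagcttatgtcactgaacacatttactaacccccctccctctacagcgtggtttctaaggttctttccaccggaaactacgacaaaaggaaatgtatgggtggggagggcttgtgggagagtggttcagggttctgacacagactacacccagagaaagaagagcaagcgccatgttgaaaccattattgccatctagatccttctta
Il7r: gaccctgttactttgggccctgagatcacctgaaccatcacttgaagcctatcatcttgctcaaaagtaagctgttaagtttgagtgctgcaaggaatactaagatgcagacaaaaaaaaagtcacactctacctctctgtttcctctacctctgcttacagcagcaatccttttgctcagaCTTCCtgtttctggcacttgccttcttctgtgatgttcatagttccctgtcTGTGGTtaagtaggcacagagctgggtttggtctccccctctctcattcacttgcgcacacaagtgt
Cxcl12: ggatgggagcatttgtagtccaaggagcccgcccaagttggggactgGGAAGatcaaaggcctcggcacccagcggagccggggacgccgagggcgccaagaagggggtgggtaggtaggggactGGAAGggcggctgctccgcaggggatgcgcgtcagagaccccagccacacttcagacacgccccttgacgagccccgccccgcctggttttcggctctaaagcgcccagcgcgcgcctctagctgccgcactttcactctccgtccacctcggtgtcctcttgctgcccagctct
The window of Il2rg held neither string, although it held the shorter GGAA 3 times, counting both strands. The window of Il7r held 1 GGAAG on the other strand beginning 68 bases before the start and 1 TGTGGT beginning 17 bases before it, and that of Cxcl12 held 2 GGAAG. Promoter sequences were found for 55 of the 73 genes. GGAAG stood in 70.1% of 27457 rat promoters of this length and in 43 of the 55 (78.2%), and TGTGGT in 16.9% and in 9 of the 55. Among the genes whose lowest arrays were soy 149 and casein 6, 9 of 14 held GGAAG, against 34 of 41 other genes, and 1 of 14 held TGTGGT, against 8 of 41. These matches describe letters in a window only.

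Soy 149 and casein 6 were also the lowest arrays of Il2rb, Il13ra2 and Il17ra. Il2rb, the chain shared by the receptors for interleukins 2 and 15, was at 8.78, 7.18, 9.16, 9.34 and 8.85 in soy glands, against 7.60, 8.76, 8.93, 8.71 and 9.10 in casein glands. Il13ra2, a decoy receptor for interleukin-13, was at 7.84, 6.46, 7.92, 8.10 and 8.07 in soy glands, against 6.51, 7.82, 8.55, 7.67 and 7.95 in casein glands. Il17ra, the broadly expressed receptor chain for interleukin-17, was at 9.28, 8.46, 9.58, 9.52 and 9.42 in soy glands, against 8.59, 9.32, 9.45, 9.10 and 9.40 in casein glands. In all of these genes the soy and casein ranges overlapped, and the differences were 0.04, -0.02 and 0.08. Il4r, Il6st and the interleukin-18 binding protein Il18bp also had these arrays as their lowest, but by margins of only 0.03 in Il4r and 0.13 in Il18bp. The remaining 13 receptor chains did not have this lowest pair, among them Il2ra, the alpha chain of the interleukin-2 receptor, whose lowest arrays were casein 6 (4.52) and soy 159 (5.89). Soy 149 (5.93) lay just above soy 159 in Il2ra, and all remaining arrays were at 6.46 or more.

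Il6st, which is gp130, ranged from 10.52 to 11.01 in soy glands and from 10.55 to 11.07 in casein glands (SD 0.19), and its 3 probe sets gave differences from -0.09 to 0.04. The brightest probe set alone had soy 149 and casein 6 as its lowest pair. In the next brightest, soy 149 was at 10.81 and casein 6 at 10.94, against 10.58 to 11.01 in the other arrays. Il11ra1, the receptor chain for interleukin-11 that pairs with gp130, was at 8.85, 8.95, 9.47, 9.29 and 9.47 in soy glands, against 9.65, 9.16, 9.0, 9.02 and 9.25 in casein glands. Casein 6 was its highest array, and its difference was -0.01 ± 0.16 (SE). Il17re, a chain of the interleukin-17C receptor on epithelium, was highest in soy 149 (9.76) and lowest in casein 6 (8.42), the arrays that were low together for Il2rg, while the other 8 arrays lay between 8.95 and 9.13. In the second probe set of Il17re, soy 149 was again highest (8.16), but casein 20 (5.530) and soy 157 (5.561) lay just below casein 6 (5.564). Of 21 receptor chains and binding proteins, 0 were called and 11 had positive and 10 negative differences.

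**Figure D3:**
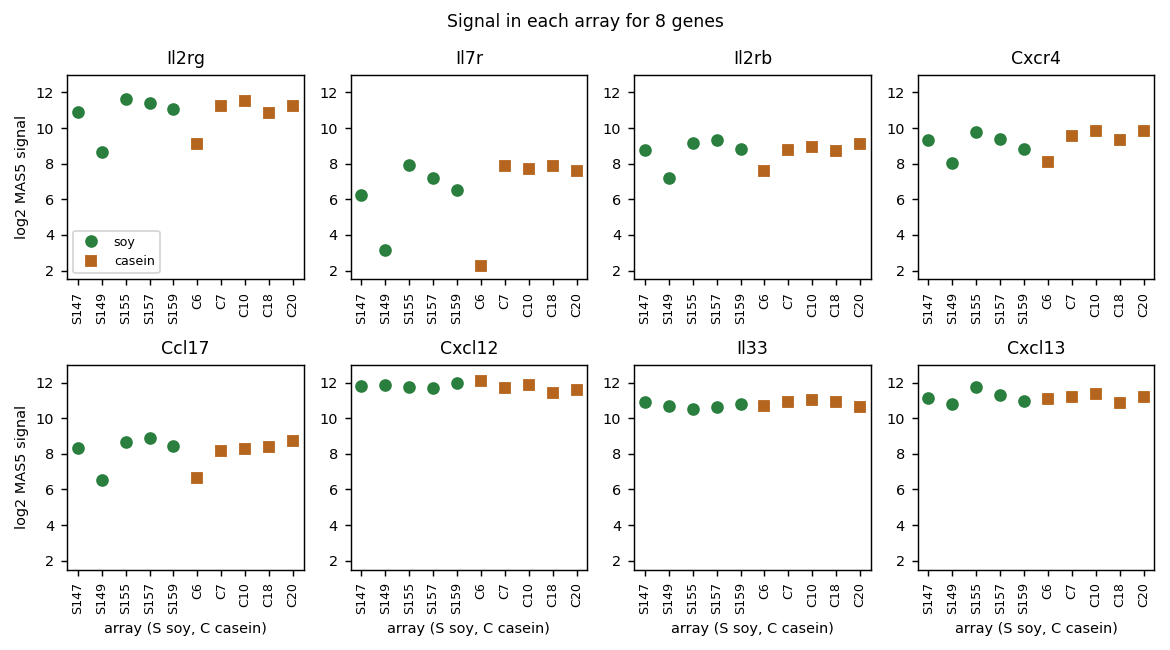
Log2 signal in every array for Il2rg, Il7r, Il2rb, Cxcr4, Ccl17, Cxcl12, Il33 and Cxcl13; circles are soy arrays (S) and squares casein arrays (C), on one vertical scale. In the first 5 genes S149 and C6 lie below the other arrays, and in Cxcl12, Il33 and Cxcl13 the 10 arrays lie between 10.50 and 12.08.

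Counted over the whole group, 18 of the 73 genes had soy 149 and casein 6 as their 2 lowest arrays. The background was 13.3% of all 10411 genes, and among genes at or above 7.47 it was 16.6%, against 13 of the 31 genes here. The reverse, with these as the 2 highest arrays, held for Cxcl3 (in 1 of its 4 probe sets) and Cxcr2, against 5.31% of all genes. Receptor chains made up 8 of the 18 (Il2rb, Il2rg, Il4r, Il6st, Il7r, Il13ra2, Il17ra and Il18bp), CC ligands 3 (Ccl3, Ccl17 and Ccl20), interleukins 3 (Il1b, Il16 and Il18), CXC ligands 2 (Cxcl1 and Cxcl16) and chemokine receptors 2 (Cxcr3 and Cxcr4). Il6st counts among the 18 by 1 of its 3 probe sets, and Cxcr4 by all 3. These arrays were chosen for their lymphocyte markers, and the share of the pattern that belongs to lymphocytes was not tested.

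Soy 157 was the highest array for 26 of the 73 genes (35.6%), against 18.9% of all genes, and for 18 of the 42 genes below 7.47 (42.9%), against 30.9% of all genes below it. The median deviation of the 73 genes from their own means was 0.32 in soy 157 and 0.23 in soy 155, and -0.26 in soy 149 and -0.15 in casein 6. The median signal of soy 157 was also the highest of all arrays, 286, with 255.7 the lowest.

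Across the 73 genes, limma called 0 at an adjusted p under 0.05. At an unadjusted p under 0.05, 3 were higher in soy glands (Cxcl14, Cxcr1 and Il17f) and 0 lower. The background was 302 higher and 218 lower of all 10411 genes, and 3.21% higher and 2.1% lower of all probe sets. With the further condition of 1.5-fold, 2 remained (Cxcr1 and Il17f), against 2.25% of all probe sets. These shares do not set the group apart from the background. The dimmer of 2 probe sets of Il1a also met both conditions (difference 0.63; unadjusted p = 0.031, adjusted p = 0.86, limma), while the brighter gave -0.06. Differences were positive for 43 genes and negative for 30, beside 5484 positive and 4927 negative of all 10411 genes. The median of the 73 genes was 0.056, against 0.0099 over all genes. The median was 0.15 without soy 149 and turned to -0.02 without soy 157, with 34 positive and 39 negative differences. Under quantile normalization it was 0.01, with 37 positive and 36 negative. The median standard error of a difference was 0.254, from 0.103 to 1.163, which limits what 5 arrays a diet can show for most of these genes.

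**Figure D4:**
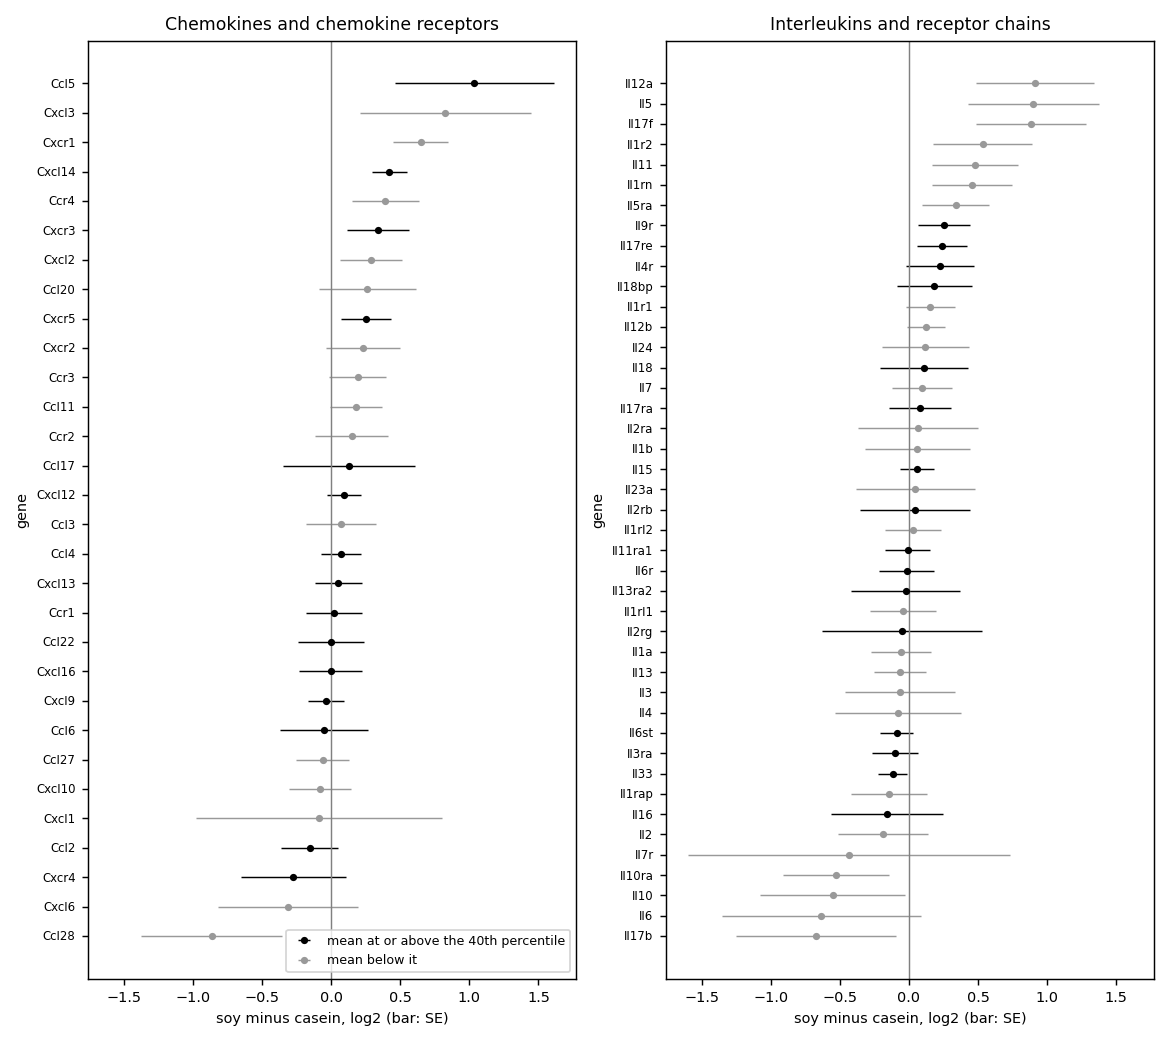
Soy minus casein difference in log2 signal with its standard error (bar) for all 73 genes, chemokines and their receptors on the left and interleukins and receptor chains on the right; black marks genes with means at or above 7.47, grey those below. The black points lie between -0.27 and 0.42 except Ccl5 at 1.04, and differences beyond these are otherwise grey.

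**Figure D5:**
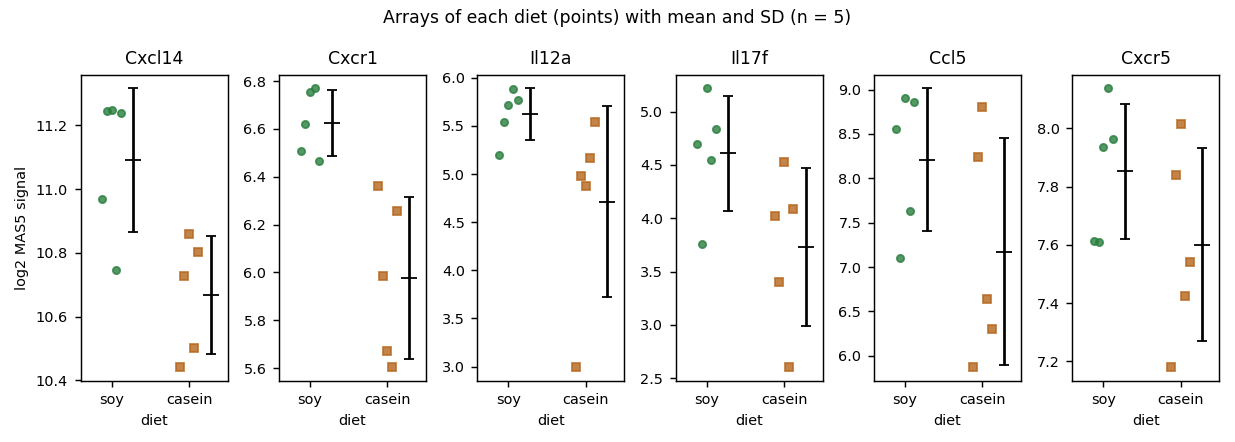
Log2 signal of Cxcl14, Cxcr1, Il12a, Il17f, Ccl5 and Cxcr5 in each array, soy left and casein right, with mean and SD (n = 5 each); each panel has its own vertical scale. The points of the diets are separate only for Cxcr1, by 0.10, and a single low casein array at 3.0 sets the casein mean of Il12a.

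By pathway, no list of related genes held a call in limma. The list of lymphoid homing genes had 4 measured genes, Cxcl12, Cxcl13, Cxcr4 and Cxcr5, with differences from -0.27 to 0.25. Among 12 inflammatory chemokines, 7 differences were positive and 5 negative (median 0.07), and 0 of the 12 had an unadjusted p under 0.05. The common gamma chain family had 10 measured genes, 6 with positive and 4 with negative differences (median 0.05), and 4 of them had soy 149 and casein 6 as their lowest arrays. For the interleukin-1 family the counts were 7 positive and 4 negative of 11 (median 0.06), and for the gp130 family 1 positive and 4 negative of 5 (median -0.02). Chemokine genes with other names gave 4 positive and 3 negative of 7. Ppbp, a platelet chemokine, was the only one of these 7 without overlap, at 6.86, 7.19, 7.12, 7.04 and 6.89 in soy glands, against 6.77, 6.80, 6.62, 5.48 and 6.75 in casein glands (difference 0.54 ± 0.26, SE; adjusted p = 0.86, limma). Such separation with soy higher held for 0.682% of all genes.

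Among 22 measured genes of signalling downstream of these receptors, 0 passed the adjusted threshold, and at an unadjusted p under 0.05 there was 1 higher (Cish, an inhibitor induced by STAT5, at 0.90) and 2 lower (Socs2 at -0.62 and Stat5b at -0.56), beside 3.21% higher and 2.1% lower of all probe sets. Cish was the only one of the 22 without overlap, with 7.80 to 8.83 in soy glands against 6.72 to 7.72 in casein glands, beside 0.682% of all genes. In 5 of the 22 genes soy 149 and casein 6 were the lowest arrays, beside 13.3% of all genes. One was Rgs1, a brake on chemokine receptor signalling in lymphocytes, at 2.61 in soy 149 and 3.07 in casein 6, while its 8 other signals lay between 6.72 and 7.49.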

How the data were processed

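Total RNA of whole mammary glands was labelled with biotin and hybridised to 1-colour arrays, 1 array per sample, per the labels. The deposited intensity of each probe set is a linear signal that the authors made with MAS5, per the submitters' processing notes; no version or settings are given in the sources used. The 2% trimmed mean of each array was 500.09 to 500.12, so that scaling was kept. Detection calls were not used here.

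Values were floored at 1 and put on the log2 scale. Of 15923 probe sets, 57 controls were left out. The platform annotation named 1 gene for 12783 of the other 15866, several for 312 and none for 2771; 2 probe sets fitting the name pattern named several genes and were left out. All 73 symbols were found unchanged in the GRCr8 gene table. limma 3.58.1 in R 4.3.3 (lmFit, eBayes with an intensity trend, two-sided) compared soy with casein, with Benjamini-Hochberg adjustment over 15866 probe sets; these steps were tested on simulated data. An exact permutation test was run for each of the 73 genes. It is reported only for Cxcr1, where the lack of overlap fixes its outcome. The labels give no batch or scan date.

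Genes named are the 4 of highest mean signal in each role, the 8 with the largest SD among genes at or above the 40th percentile of the mean, the 10 of smallest p, those without overlap and Cxcr5; others appear as examples chosen after their values were seen. The genes and lists were chosen with earlier results of these data known. Alternatives were other scalings, filters, variance models, array weights, the lymphocyte marker mean as a covariate, averaging all probe sets of a gene, another call rule and leaving out arrays.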

Additional observations from a re-analysis of the deposited data

Results flagged for a closer look

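The 31 named genes gave 62 groups of 5 arrays, and in 12 of them the lowest or highest array lay far from the other 4 of its diet, by Dixon's ratio; chance gives about 1 in 20 in genes not picked for their spread, whereas 8 of these genes were picked for a large SD, so the rate does not apply to them. Most were low values in soy 149 or casein 6, the arrays with low lymphocyte markers. In soy 149 they were Ccl17 at 6.52 (others 8.32 to 8.87), Il13ra2 at 6.46 (7.84 to 8.10), Il17ra at 8.46 (9.28 to 9.58), Il18 at 7.00 (8.06 to 8.41), Il2rb at 7.18 (8.78 to 9.34) and Il2rg at 8.66 (10.90 to 11.64). In casein 6 they were Ccl17 at 6.62 (others 8.16 to 8.72), Il2rb at 7.60 (8.71 to 9.10) and Il2rg at 9.13 (10.83 to 11.49). Il12a was also low in casein 6, at 3.0, against 4.88 to 5.54 in the other casein arrays. In soy 157, Ccl6 was low at 7.96 (others 9.25 to 9.35) and Ccr4 high at 7.73 (6.52 to 6.82). What sets these values was not tested.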

How the results depend on the processing

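With an adjusted p under 0.05, 0 probe sets and 0 of the 73 genes were called by limma in the 21 other settings run; the genes with an unadjusted p under 0.05 numbered 1 to 7 there. Under the rule of an unadjusted p under 0.05 and 1.5-fold, 357 probe sets and 2 of the 73 genes were called. The median difference of the 73 genes ran from -0.02 (without soy 157) to 0.15 (without soy 149) when 1 array was left out, and was 0.12 without casein 6 and soy 149. All 223 alternative values of 11 named differences kept their sign, and 20 moved by over 1.5 times: these belonged to Ccl28, Ccr4, Cxcr5, Il1rn, Il5, Il11, Il12a and Il17f. The 11 were Cxcr5 and the 10 genes of smallest p in these same arrays, so a kept sign is no independent support. The difference of Il5 was 0.08 without casein 6, soy 147, soy 149 and soy 157, the arrays with high muscle signal, and that of Il17f 1.37. No paired analysis was possible because the diets share no sample numbers. Detection calls were not used, so how far the 42 genes with means below 7.47 (177.1 on the linear scale) lie above background is not known.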
